A study of Arabidopsis thaliana with 64 samples.

Results

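Among the gene rows counted in leaves of *Arabidopsis thaliana*, 55 of 33321 were abundant in the inbred accession C24 and scarce in the inbred accession Landsberg erecta (Ler). They were chosen on raw counts at 28 days after sowing (DAS), scaled to the library total as CPM (counts per 1e6 counts). A member had at least 2 CPM in each of the 4 C24 libraries, and its highest value among the 4 Ler libraries was at most 1/16 of its lowest C24 value. Chloroplast and mitochondrial rows and 5 named genes (AT5G10140, AT5G25980, AT4G03060, AT5G17880 and AT5G17890) were left out, although all 5 would have passed the limit. The members were taken from 16904 nuclear genes that passed the C24 minimum. The values at 28 DAS in C24 and Ler chose the members, so that contrast is described without a test.

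The plants were the accessions C24 and Ler, their F1 hybrids in both directions (C24xLer and LerxC24), and F4 lines from the same cross. The F4 lines were 8 L lines (L1-1 to L4-2, which the series' design text calls hybrid mimics) and 2 S lines (S1-1 and S2-1). The labels list no treatment. Whole aerial seedlings were taken at 15 DAS and the largest leaves at 28 DAS. Each library was a pool of 5 plants, and each group had 2 pools, so errors and p-values measure the spread between pools. Batch 1 held C24, Ler, C24xLer and the L1 and L2 lines, and batch 2 held C24, Ler, LerxC24 and the L3 and L4 lines under other light tubes. Because of this, the direction of the F1 cross and the batch cannot be told apart. S lines and the pools of smallest parental seedlings exist at 15 DAS only. The protocol names 1 S line in batch 1, which could not be matched to S1-1 or S2-1, so the S lines were set against both batches. Each line is 1 line and stands for its own genotype only. In these bulk samples, fewer cells of a type and less RNA per cell cannot be told apart.

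Libraries held 36324848 to 256721442 counts. Leaf marker genes summed to 24043 to 42596 CPM at 15 DAS. At 28 DAS they summed to 27286 to 37403 CPM in batch 1 and 51012 to 59046 CPM in batch 2, with no overlap, while root markers summed to at most 50.4 and 2.01 CPM, and flower organ markers to at most 64.0 and 14.4 CPM. The libraries labelled Ler of batch 1 at 15 DAS stood apart from the other Ler libraries over the members, as shown later, and the main parental and mid-parent counts are given with and without them. Whether plants or labels were mixed there was not tested. Pool B of C24 in batch 1 and pool B of the smallest C24 seedlings at 15 DAS were the most alike of all pairs. A chi-square comparison of their counts gave 2.46 per gene, against 17.6 for the next closest pair, 24.8 for the closest pair within a group of that age and a median of 76.3 within groups. Parental results are given with each of these 2 libraries left out.

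When 2 inbred parents differ at a gene, the F1 carries both alleles, and each later generation of selfing fixes one parental allele or the other along whole stretches of chromosome. A transcript made from the C24 allele alone therefore marks which parent a line inherited there. Disease resistance genes, receptor-like kinases, transposon remnants and pseudogenes are known in *Arabidopsis* to differ widely in presence and sequence between accessions. Sadhu elements are non-autonomous retrotransposons whose copies can be expressed in one accession and methylated and silent in another. Reads were aligned to TAIR10, the genome of another accession (Columbia), so that a low Ler count can come from low expression, a missing gene or diverged sequence, and these cannot be told apart.

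The members lay on all 5 chromosomes, with 15 on chromosome 1, 11 each on chromosomes 2, 3 and 4, and 7 on chromosome 5. These are 0.338, 0.432, 0.327, 0.423 and 0.180% of the genes of each chromosome that passed the C24 minimum. Pseudogenes made up 23 of the 55 members (41.8%), against 1.33% of the 16904 genes. Protein-coding genes made up 28 (50.9%), against 96.9%. Of the other 4, AT2G13665 and AT4G38932 were long non-coding RNAs annotated as antisense to a coding gene, and AT2G15128 and AT4G12917 were other non-coding RNAs. By position, AT2G13665 overlapped AT2G13660, while AT4G38932 overlapped no other counted gene. By annotation words, 7 members were receptor-like proteins or kinases, 4 were Sadhu retrotransposons and 1 was an F-box gene. The mean C24 level at 28 DAS ran from 2.17 to 3773 CPM with a median of 11, and the mean Ler level had a median of 0.110 CPM and a maximum of 8.93. Just inside the limit, the lowest C24 value was 17.0 times the highest Ler value for AT2G01090 and 18.0 times for AT4G18410. Just outside it were SPIK (15.4 times) and AT5G37125 (15.2 times).

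The highest level belonged to AT2G25510, a protein-coding gene of no annotated function on chromosome 2. Its C24 pools at 28 DAS held 4957, 5983, 2453 and 1699 CPM, and its Ler pools held 3.17, 21.5, 9.17 and 1.88 CPM. Per kb of exon its mean C24 level was 4964 CPM, against 77.2 for AT4G04692, a pseudogene, and 27.2 for the resistance gene AT1G63880. The C24 pools of batch 1 were all above those of batch 2, and leaf marker sums in the same pools were 28491 and 35358 CPM in batch 1 and 58782 and 51570 CPM in batch 2. The part of that shift in the result was not tested. The 200 bases upstream of the annotated start of 5 members are shown for the genes whose levels carry the results below: AT2G25510, the resistance gene AT1G63880, the receptor-like kinase CRK4 (AT3G45860), the retrotransposon SADHU3-2 (AT3G42658) and AT2G13660, which varied over the lines like members of chromosome 3. They come from the RefSeq annotation of TAIR10.1 at chr2:10856071-10856270 (plus strand), chr1:23716207-23716406, chr3:16866262-16866461, chr3:14750295-14750494 and chr2:5693017-5693216 (minus strand), each 5′ to 3′ along the gene. Capitals mark TATAAA, the core of a TATA box, and TTGAC, the core of the W box bound by WRKY factors, on either strand.
AT2G25510: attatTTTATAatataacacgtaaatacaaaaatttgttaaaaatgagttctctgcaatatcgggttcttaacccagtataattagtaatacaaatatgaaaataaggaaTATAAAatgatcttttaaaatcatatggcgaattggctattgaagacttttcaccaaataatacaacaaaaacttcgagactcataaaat
AT1G63880: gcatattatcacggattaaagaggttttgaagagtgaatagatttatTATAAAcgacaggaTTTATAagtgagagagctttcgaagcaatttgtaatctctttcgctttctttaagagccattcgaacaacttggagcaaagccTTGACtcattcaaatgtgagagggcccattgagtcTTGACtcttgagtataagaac
CRK4: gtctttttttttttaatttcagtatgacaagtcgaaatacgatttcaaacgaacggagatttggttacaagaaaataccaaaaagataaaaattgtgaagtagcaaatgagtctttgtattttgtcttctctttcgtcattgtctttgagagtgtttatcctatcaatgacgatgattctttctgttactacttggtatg
SADHU3-2: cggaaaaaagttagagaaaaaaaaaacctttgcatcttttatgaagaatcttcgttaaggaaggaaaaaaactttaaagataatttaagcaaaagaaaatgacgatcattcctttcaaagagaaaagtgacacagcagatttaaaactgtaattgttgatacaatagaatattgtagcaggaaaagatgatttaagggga
AT2G13660: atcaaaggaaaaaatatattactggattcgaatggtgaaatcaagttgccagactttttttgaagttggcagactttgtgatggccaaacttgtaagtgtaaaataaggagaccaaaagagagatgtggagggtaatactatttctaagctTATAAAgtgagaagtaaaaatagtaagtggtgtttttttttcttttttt
TATAAA stood on either strand in 17 of the 55 windows (30.9%) and in 39.7% of the windows of 32564 genes. TTGAC stood in 20 (36.4%) against 38.0%. AT2G25510 held 2 TATAAA and no TTGAC, AT1G63880 held 2 of each, and CRK4 and SADHU3-2 held neither in this window. These are sequences of the Columbia reference and not of C24 or Ler.

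**Figure D1:**
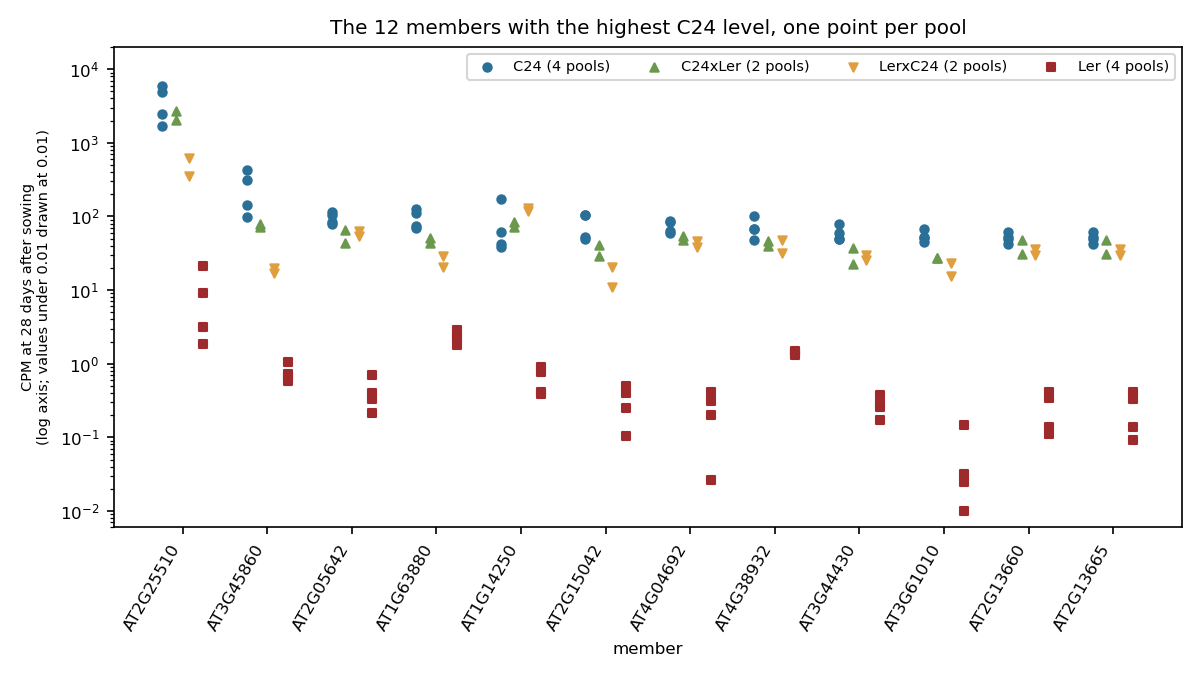
CPM at 28 DAS on a log axis for the 12 members with the highest mean C24 level, one point per pool for C24 (4 pools), C24xLer (2 pools), LerxC24 (2 pools) and Ler (4 pools). The Ler points lie below all C24 points of the same member, which the choice of members fixed, and all F1 points lie above the Ler points. F1 points reach into the range of the 4 C24 pools of both batches for AT2G25510, AT1G14250, AT2G13660 and AT2G13665. They lie below it for the other 8. Against the C24 pools of the same batch alone, only AT1G14250 has F1 points that reach the C24 range or exceed it.

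TIR-NBS-LRR proteins are intracellular sensors of pathogen effectors. AT1G63880, a gene of this class known for resistance to the fungus Leptosphaeria maculans, had 128, 110, 73.4 and 70.5 CPM in C24 at 28 DAS and 2.91, 2.36, 1.79 and 2.25 CPM in Ler. Its C24 pools of batch 1 lay above those of batch 2 with no overlap, beside the same shift in leaf markers. CRK4, a cysteine-rich receptor-like kinase linked to cell death and defence, led the receptor-like group. Its C24 pools held 421, 312, 142 and 99.7 CPM, and its Ler pools 0.733, 1.07, 0.583 and 0.663 CPM. The group also held 3 leucine-rich repeat genes (AT2G15042, AT3G19320 and AT3G43740), PSEUDOSRKA (AT4G21370, a decayed copy of the self-incompatibility receptor kinase) and AT4G23215, a pseudogene of a cysteine-rich receptor-like kinase.

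The 4 Sadhu elements were SADHU1-2, SADHU2-1, SADHU3-2 and SADHU10-1. SADHU10-1 (AT3G58865) was the highest, with 16.4, 21.9, 15.9 and 17.1 CPM in C24 and 0.628, 0.536, 0.347 and 0.589 CPM in Ler at 28 DAS. SADHU3-2 had 7.63, 9.48, 6.94 and 10.8 CPM in C24, and its Ler pools held 0, 0, 0.0124 and 0.0736 CPM. SADHU2-1 (AT1G35112) sits between AT1G35110 and AT1G35115, also members, and overlaps AT1G35110 on the same strand, so that these 2 may share reads. In all, 7 members lay next to another member on the chromosome and 8 overlapped another gene. AT2G13660 and AT2G13665 are an antisense pair over the same bases with nearly equal counts (62.2 and 62.1 CPM in C24 pool A), and the handling of strand is not given in the sources used here. Their values cannot be told apart.

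Some members have near copies elsewhere in the genome, which limits what their counts mean. A megablast search of TAIR10.1 gave 45 of 55 members another match, 18 of them over at least 50% of the gene, and 7 of these at 90% identity or more. AT5G28350, a RIC1-like exchange factor gene on chromosome 5, matched AT3G61480 on chromosome 3 over 100% of its length at 97.3% identity. The partner was not low in Ler: it had a mean of 19.1 CPM in C24 and 25.2 CPM in Ler at 28 DAS. AT5G28450, annotated as a chlorophyll a/b binding protein, matched LHCA2, a photosystem I antenna gene with 2695 CPM in C24 and 2791 in Ler, at 95.1% identity over 38.4% of its length. AT4G18410 matched AT5G37125, the gene just outside the limit, which had 2.58 CPM in C24 and 0.108 CPM in Ler. The counting of reads that match several places is not given in the sources used here, and values of these members are uncertain to that extent.

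Seedlings at 15 DAS gave parental libraries that the choice of members had not used. In batch 2, 54 of 55 members were lower in Ler than in C24 by edgeR's quasi-likelihood test with Benjamini-Hochberg (BH) adjustment over 30207 genes and an adjusted p under 0.05 (54 of 55 against a background of 9.78% of all genes). None was higher, against 8.99% of all genes. The median log2 difference of Ler minus C24 was -5.01 over the members and 0.00 over all genes tested. AT4G23215 was the exception, with 2.26 and 0.724 CPM in C24 and 0.530 and 0.606 CPM in Ler (log2 difference -1.39 ± 0.53 SE, adjusted p = 0.0732). The smallest seedlings gave 52 lower members (background 5.77%) with a median log2 difference of -5.24, and none higher (background 4.84%). AT1G24145, AT1G66860 and AT4G23215 did not pass there, and 50 members were lower without pool B of the smallest C24 seedlings.

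Members differed in how far the seedling contrast matched the leaf contrast. AT2G25510 had 569 and 443 CPM in C24 of batch 2 at 15 DAS against 0.507 and 0.248 CPM in Ler (log2 difference -10.23 ± 0.89 SE, edgeR adjusted p = 2.38e-08). CRK4 differed much less at this age: 48.3 and 25 CPM in C24 against 9.45 and 9.30 CPM in Ler (-1.94 ± 0.34 SE, adjusted p = 0.000265). PSEUDOSRKA had 9.22 and 9.78 CPM in C24 and 4.22 and 3.96 CPM in Ler (-1.18 ± 0.31 SE, adjusted p = 0.00961). AT1G66860, a glutamine amidotransferase-like gene, had 10.7 and 6.69 CPM against 3.98 and 4.07 CPM (-1.08 ± 0.35 SE, adjusted p = 0.0356). For CRK4, PSEUDOSRKA and AT1G66860 the Ler seedlings had higher CPM than any Ler leaf pool. At the other end, SADHU2-1 had no count in either Ler pool of batch 2 and 10.3 CPM in C24, which is at least 177-fold lower by a floor of 3 counts per library.

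The 2 libraries labelled Ler of batch 1 at 15 DAS did not follow this pattern, and their values go against the label at most members. There 40 of 55 members were lower than in C24 (background 2.71%) and none was higher (background 3.87%), with a median log2 difference of -1.42. As a share of the C24 level of the batch, the members had a median of 0.389 in pool A and 0.313 in pool B. The Ler pools of batch 2 had medians of 0.0325 and 0.0207, and the pools of the smallest Ler seedlings, sampled in batch 1, had 0.0224 and 0.0230. AT2G25510 had 142 and 409 CPM in these Ler pools and 163 and 348 CPM in C24 of the batch. AT1G63880 had 28.7 and 28.0 CPM against 80.1 and 70.6 CPM. Both of these Ler libraries thus held counts that other Ler libraries lack at most members.

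The excess was uneven along the genome. A set of 12 members stayed under 1/16 of C24 in both pools, among them AT1G36078 and AT1G42852 on chromosome 1, AT2G05642, AT2G07750 and AT2G15160 on chromosome 2, and AT4G07965, AT4G08093 and AT4G29200 on chromosome 4. On chromosome 3, none of 11 members was under 0.25 of C24 in either pool, and the medians were 0.449 and 0.406. The pools also differed from each other: the median on chromosome 1 was 0.504 in pool A and 0.185 in pool B. A contrast of the parental difference between batches called 33 members as less negative in batch 1 (background 0.917% of 30207 genes) and none as more negative (background 0.205%). This contrast takes the Ler side of batch 1 wholly from these 2 libraries. Per the protocols the batches differed in light tubes and shelves. The smallest seedlings of the same batch did not share the excess, with 52 members lower than C24 of batch 1 when they replaced these 2 libraries. Without pool B of C24 in batch 1, 32 members were lower in the libraries labelled Ler of batch 1, and leaving out each library in turn gave 30 to 39.

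**Figure D2:**
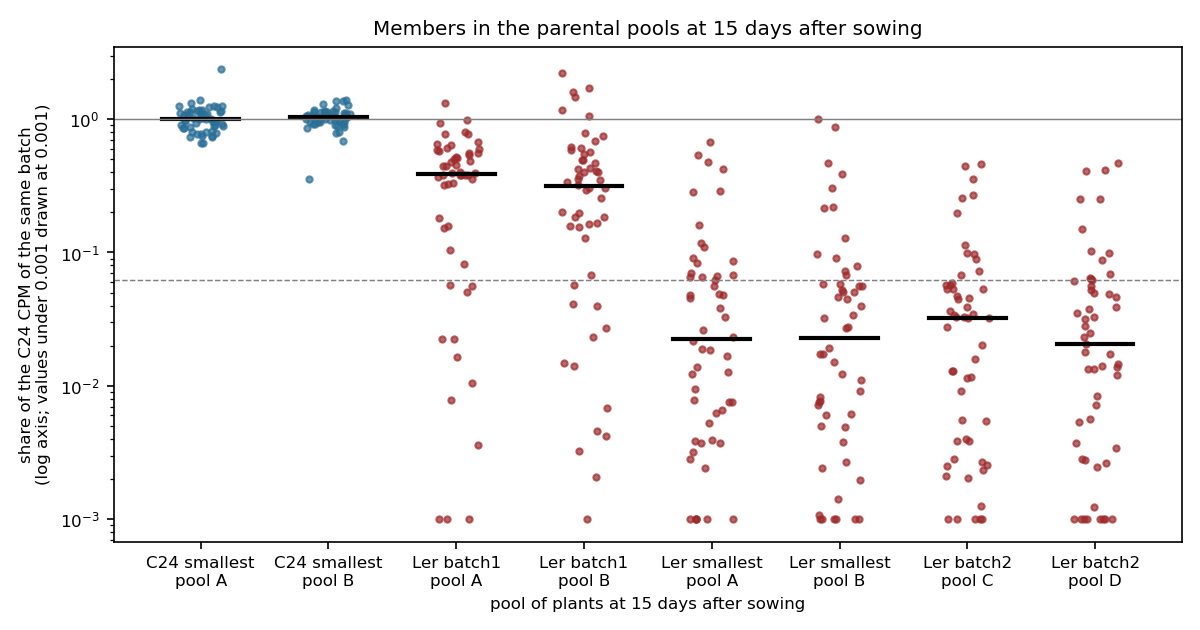
Share of the C24 CPM of the same batch on a log axis for each member (points) in the parental pools at 15 DAS, with the median as a black bar, a solid line at 1 and a dashed line at 1/16. The pools labelled Ler of batch 1 have medians of 0.389 and 0.313, against 0.0207 to 0.0325 in the other Ler pools.

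In the F1 hybrids the members stood near the middle of the parental range. The median share of the C24 level was 0.516 in C24xLer and 0.473 in LerxC24 at 15 DAS, and 0.518 and 0.509 at 28 DAS. Most members lay between 0.25 and 0.75 of C24: 48 of 54 and 50 of 55 at 15 DAS, and 49 and 46 of 55 at 28 DAS. Against libraries made by averaging a C24 and a Ler library of the batch at 15 DAS, edgeR with BH adjustment called no member in either cross (backgrounds 0.196% lower and 0.00997% higher for C24xLer, 0.00997% and 0.00665% for LerxC24). DESeq2 also called none, and an unadjusted p under 0.05 was reached by 15 members in C24xLer and 4 in LerxC24. The mid-parent of C24xLer contains the libraries labelled Ler of batch 1, on which the 15 also rest, and with the smallest Ler seedlings in their place the count was again 0. When C24 and Ler were averaged as logarithms, where a mean of unequal parents lies lower, 10 members in C24xLer, again with those libraries, and 31 in LerxC24 were higher. The members were chosen for a large parental gap, and the share of all genes is not given for this setting. These counts are therefore a description only.

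Few members left that range. AT1G36078, a short coding gene of no known function, had 0.422 and 0.50 CPM in C24xLer at 28 DAS, a share of 0.124, and 1.31 and 1.35 CPM in LerxC24. AT5G26345, a pseudogene, had 5.18 and 3.07 CPM in C24xLer and 4.59 and 4.39 CPM in LerxC24, against 22.6, 18.7, 18.7 and 20.7 CPM in C24. CRK4 had 79.5 and 72.9 CPM in C24xLer and 19.9 and 17.0 CPM in LerxC24 beside the C24 pools given above, which is low in both crosses at 28 DAS. In seedlings CRK4 had 15.5 and 20.7 CPM in C24xLer, beside 18.9 and 19.1 CPM in C24 of the batch, and 25.4 and 14.9 CPM in LerxC24, beside 48.3 and 25 CPM. No test of the F1 against the mid-parent was made at 28 DAS, because the parental libraries of that age chose the members.

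**Figure D3:**
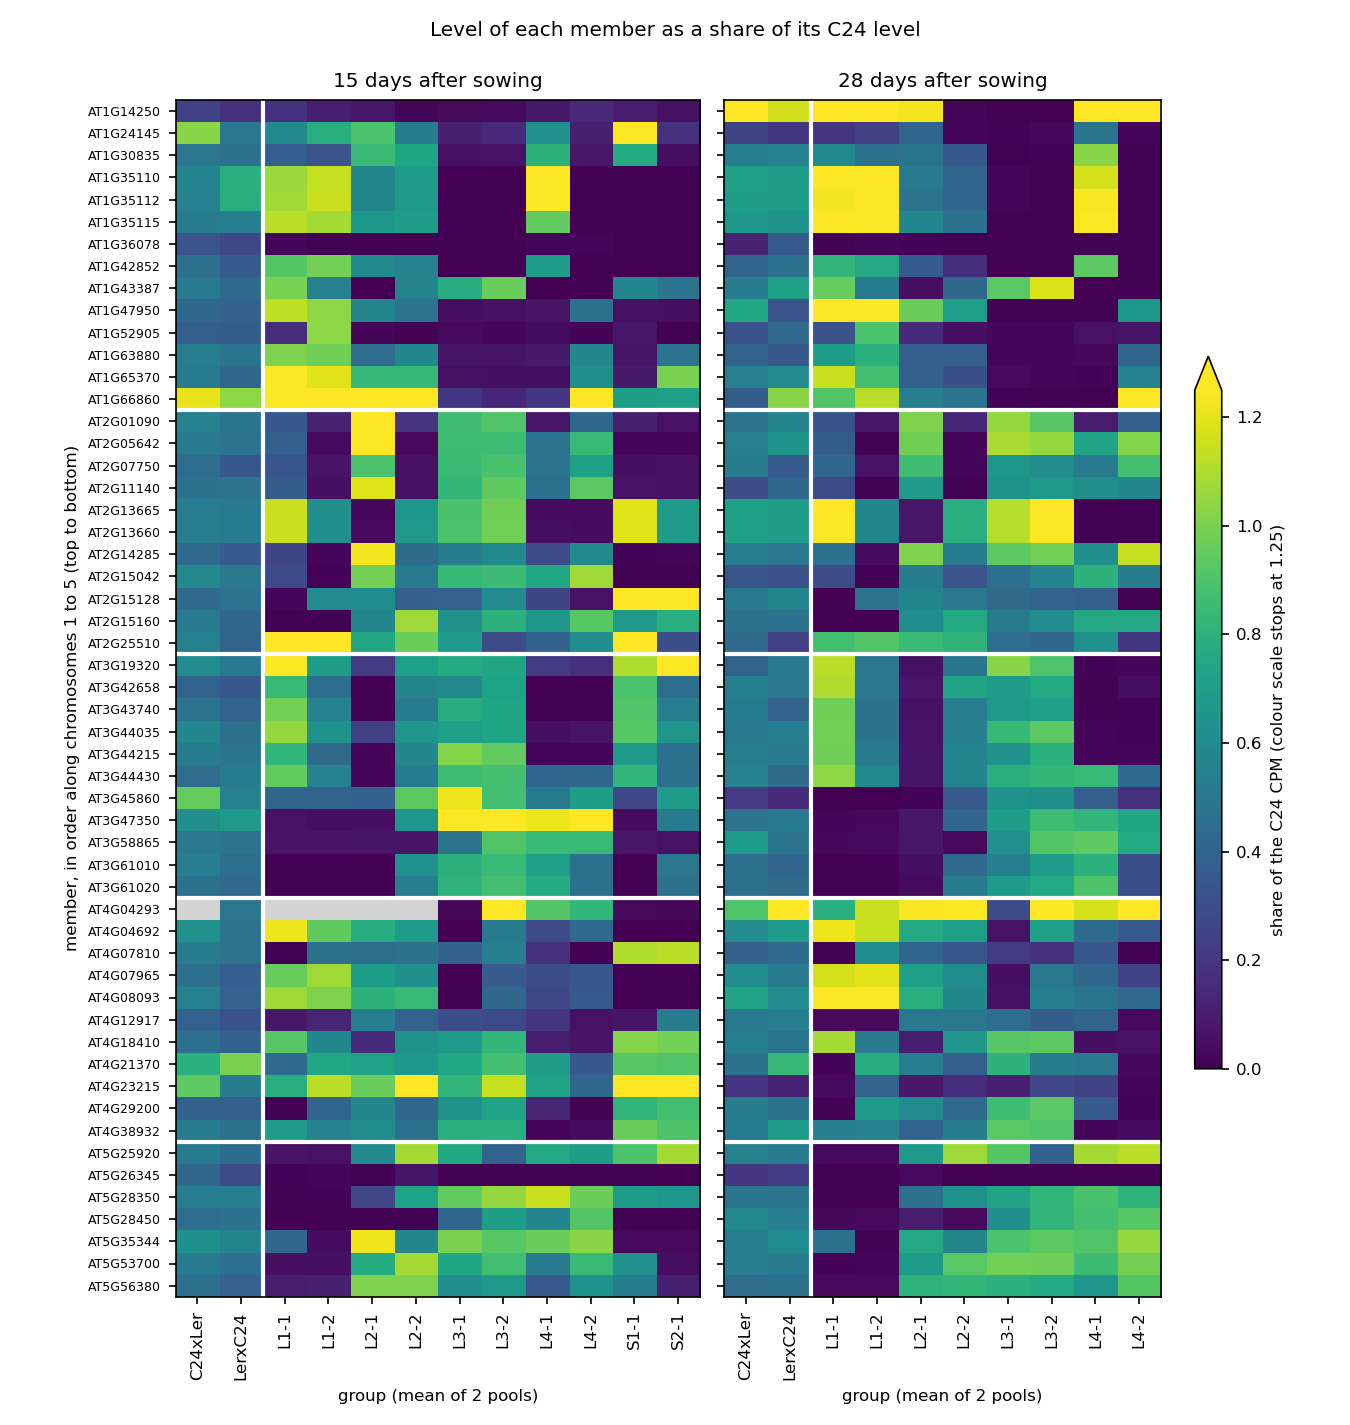
Colour shows the CPM of each member as a share of its C24 level (mean of 2 pools, C24 of the same batch, both batches for S lines), with 54 of the members in rows in order along chromosomes 1 to 5 and groups in columns at 15 and 28 DAS. Grey marks AT4G04293 where C24 of batch 1 was under 1 CPM. Both F1s are mid-coloured for most members, while L and S lines show blocks of dark (near Ler) and bright (near C24) members.

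The L lines were compared with the F1 of their own batch. Summed over the 8 lines, members were called lower than F1 in 135 of 440 tests at 15 DAS (30.7%, background 1.03%) and in 126 of 440 at 28 DAS (28.6%, background 0.576%). They were called higher in 37 tests at 15 DAS (8.41%, background 0.555%) and in 8 at 28 DAS (1.82%, background 0.137%). Lines of a batch share their F1 libraries, so these sums are not independent. Members were chosen as scarce in Ler, and F1 levels stood near the middle. A fall from F1 can thus be many-fold, while a rise to the C24 level is limited. Lower and higher counts therefore cannot be weighed against each other. Line by line at 15 DAS the counts and the background of all genes were as follows. L1-1 had 16 lower members (background 1.05%) and 8 higher (0.473%). In L1-2, 19 were lower (0.940%) and 4 higher (0.301%). L2-1 had 19 lower members (background 0.493%) and 1 higher (0.258%). In L2-2, 9 were lower (0.553%) and 2 higher (0.122%). L3-1 had 17 lower members (background 1.19%) and 6 higher (0.338%). In L3-2, 13 were lower (1.12%) and 8 higher (0.470%). L4-1 had 19 lower members (background 1.78%) and 2 higher (1.55%). In L4-2, 23 were lower (1.12%) and 6 higher (0.930%). L4-2 thus had the most lower members and L2-2 the fewest. At 28 DAS the order was similar except for L2-1. L1-1 had 18 lower members (background 0.819%) and 0 higher (0.0970%). In L1-2, 21 were lower (0.747%) and 1 higher (0.169%). L2-1 had 2 lower members (background 0.0431%) and 0 higher (0%). In L2-2, 12 were lower (0.391%) and 1 higher (0.0467%). L3-1 had 17 lower members (background 0.851%) and 2 higher (0.215%). In L3-2, 15 were lower (0.679%) and 1 higher (0.294%). L4-1 had 18 lower members (background 0.514%) and 1 higher (0.133%). In L4-2, 23 were lower (0.560%) and 2 higher (0.140%). At both ages, 113 member and line pairs were lower and none was higher. At each age 50 of 55 members were lower than F1 in at least 1 line. For the counts over both ages and over any line, the share of all genes was not taken, so they are a description only.

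At 28 DAS the counts of 4 lines moved with a single pool. In L2-1, pool A held SADHU3-2 at 1.3 CPM and AT3G61010 at 5.32 CPM, where pool B held 0 and 0.0209 CPM. Without pool A, 15 members were lower than F1 in place of 2, and without either F1 pool none was. At 28 DAS the count for L4-2 went from 23 to 8 without its pool A and to 13 without pool B, L4-1 from 18 to 9 and 8, and L2-2 from 12 to 7 without either pool. For these counts with a pool left out, the share of all genes is not given, so they are a description only. The pools of L2-2 differed too, with SADHU3-2 at 10.3 and 2.21 CPM and AT2G13660 at 76.3 and 11.3 CPM.

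**Figure D4:**
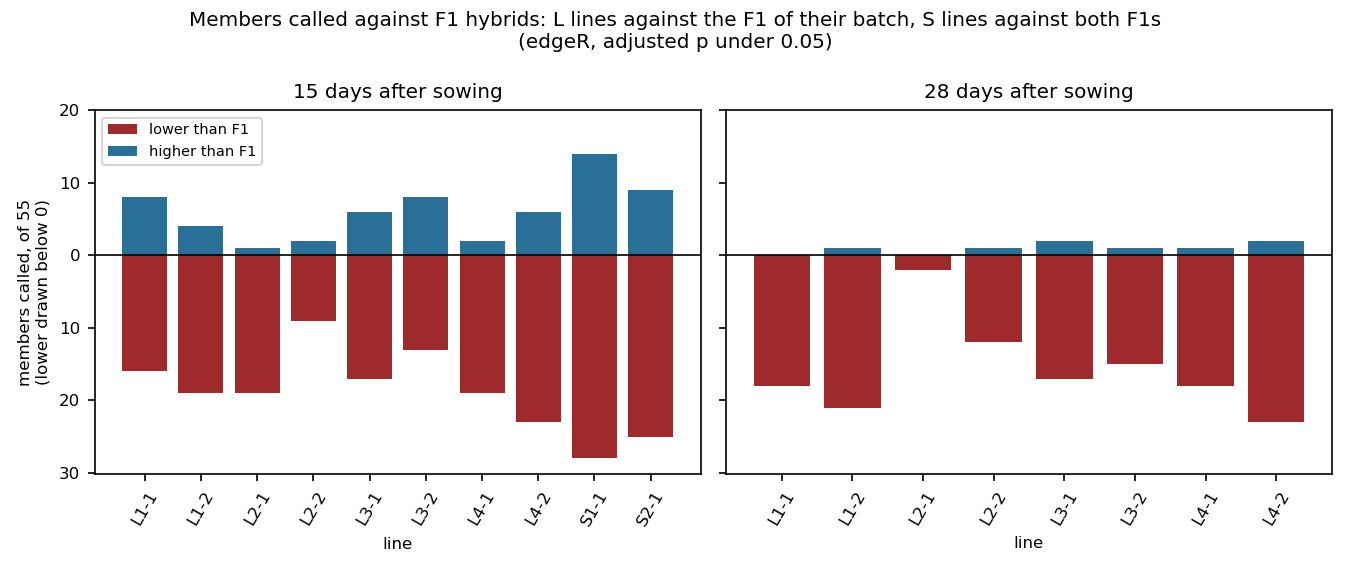
Number of the 55 members called lower (red, drawn below 0) and higher (blue) than F1 in each line at 15 and 28 DAS, by edgeR with an adjusted p under 0.05. L lines were set against the F1 of their batch and S lines against the mean of both F1s. Lower calls exceed higher calls in each of the 18 line and age combinations, with L2-1 at 28 DAS lowest at 2. The choice of members leaves more room below F1 than above it, so the directions cannot be weighed against each other.

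Sorted by share of the C24 level, members fell into 3 classes: Ler-like (under 0.25), between, and C24-like (over 0.75). Over the 8 lines, 149 member and line pairs were Ler-like, 154 between and 133 C24-like at 15 DAS, and 160, 148 and 132 at 28 DAS. The class was the same at both ages in 342 of 436 pairs (78.4%), and it switched between Ler-like and C24-like in 10. At 28 DAS, 44 of the 55 members were Ler-like in some lines and C24-like in others. Next neighbours on a chromosome had the same class in 54.8% of 396 pairs at 15 DAS and 57.0% of 400 at 28 DAS, against 31.9% and 31.6% of pairs on different chromosomes. Neighbouring members share stretches of a chromosome, so these pairs are not independent and the shares are given as a description. The neighbour pairs also include AT2G13660 with AT2G13665 and AT1G35110 with SADHU2-1, which overlap and may share reads.

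Chromosome 1 was Ler-like almost throughout in L3-1 and L3-2. In both lines and at both ages, 14 of 15 members were Ler-like and 1 was C24-like, with median shares of 0.0462 and 0.0502 at 15 DAS and 0.0144 and 0.00841 at 28 DAS. AT1G63880 had 1.72 CPM in both pools of L3-1 and 1.56 and 1.81 CPM in L3-2 at 28 DAS, against 20.7 and 29.1 CPM in LerxC24. The difference from F1 was -3.78 ± 0.51 SE for L3-1 and -3.83 ± 0.51 SE for L3-2 on the log2 scale (edgeR adjusted p = 0.00041 and 0.000425). By contrast L1-1 and L1-2 had 9 and 10 of 15 members of chromosome 1 in the C24-like class at 28 DAS. AT1G63880 there was 80.4 and 87.0 CPM in L1-1 and 75.9 and 114 CPM in L1-2, beside 128 and 110 CPM in C24 of the batch. At 15 DAS it was higher than F1 in both (0.87 ± 0.12 SE and 0.81 ± 0.12 SE, adjusted p = 0.000206 and 0.000476).

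Chromosome 3 was Ler-like in L2-1, with 10 of 11 members at 15 DAS and all 11 at 28 DAS (median share 0.0167 and 0.0596). L1-1 and L1-2 were split at the same place: the 6 members from AT3G19320 to AT3G44430 had C24-like values in L1-1 and between values in L1-2, while the members from AT3G47350 on were Ler-like in both lines. AT3G61010, a ferritin-like gene, had 0.0330 and 0 CPM in L1-1 at 28 DAS, against 27.5 and 27.0 CPM in C24xLer (log2 difference -10.08 ± 1.31 SE, edgeR adjusted p = 0.000221). L4-1 and L4-2 had the opposite layout, with AT3G19320 to AT3G44215 near the Ler level and AT3G47350 to AT3G61020 at shares of 0.298 or more at 28 DAS. CRK4, which lies between these stretches, had 0.788 and 0.979 CPM in L1-1 and 0.944 and 0.567 CPM in L1-2 at 28 DAS, against 79.5 and 72.9 CPM in C24xLer (-6.42 ± 0.80 SE and -6.64 ± 0.81 SE, edgeR adjusted p = 0.000137 and 0.000109). In seedlings no L line passed for CRK4. SADHU10-1 had 15.9 and 15.1 CPM in L4-1 beside 15.9 and 17.1 CPM in C24 of the batch.

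Chromosome 5 was Ler-like in L1-2 for all 7 members at both ages, and in L1-1 for 6 of 7. AT5G28350 had 0.117 and 0.121 CPM in L1-2 and 0.198 and 0.156 CPM in L1-1 at 28 DAS, against 14.1 and 12.4 CPM in C24xLer (L1-1 log2 difference -6.14 ± 0.28 SE, edgeR adjusted p = 4.34e-10). In L3-2 and L4-1, 5 of 7 were C24-like at 28 DAS, and in L4-2 6 of 7. On chromosome 2, L1-2 had 7 of 11 members Ler-like at both ages. AT2G05642, an OB-fold nucleic acid-binding gene, had 0.954 and 0.942 CPM in L1-2 and 1.87 and 1.22 CPM in L2-2, against 65.7 and 43.3 CPM in C24xLer (-5.84 ± 0.35 SE and -5.12 ± 0.34 SE, adjusted p = 2.38e-08 and 1.43e-07). AT2G15042, a leucine-rich repeat gene, was lower in L1-2 as well (-7.77 ± 0.55 SE, adjusted p = 1.94e-07). Chromosome 4 at 28 DAS was Ler-like for 8 of 11 members in L4-2 and for 5 in L1-1 and L3-1. AT4G29200, a beta-galactosidase-related gene, was 0.242 CPM on average in L1-1 against 22.6 CPM in C24xLer (-6.66 ± 0.64 SE, edgeR adjusted p = 8.87e-06). AT4G38932, a long non-coding RNA, was 1.37 CPM in L4-1 and 2.30 CPM in L4-2 against 39.8 CPM in LerxC24 (edgeR adjusted p = 1.44e-07 and 9.8e-07).

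Sister lines, which share the first number of their name, differed at a fraction of the members. Over the 4 pairs, 53 of 220 tests were called at 15 DAS (24.1%, background 2.28%) and 41 at 28 DAS (18.6%, background 0.303%). At 15 DAS the pairs ranged widely. L1-2 was higher than L1-1 at 4 members (background 0.122%) and lower at 6 (0.0662%). L2-2 was higher than L2-1 at 15 members (background 0.361%) and lower at 6 (0.507%). L3-2 was higher than L3-1 at 5 members (background 0.0927%) and lower at 0 (0.0397%). L4-2 was higher than L4-1 at 8 members (background 4.70%) and lower at 9 (3.23%). At 28 DAS the same tests gave fewer higher members. L1-2 was higher than L1-1 at 6 members (background 0.122%) and lower at 7 (0.0718%). L2-2 was higher than L2-1 at 4 members (background 0.129%) and lower at 7 (0.230%). L3-2 was higher than L3-1 at 1 members (background 0.0934%) and lower at 0 (0.0180%). L4-2 was higher than L4-1 at 5 members (background 0.280%) and lower at 11 (0.269%). L3-1 and L3-2 had the fewest differences, with 5 called members at 15 DAS and 1 at 28 DAS. That member was AT4G08093, a pseudogene with no count in L3-1 and 4.86 CPM on average in L3-2 at 15 DAS, and 0.362 against 3.48 CPM at 28 DAS (log2 difference of L3-2 minus L3-1 3.36 ± 0.38 SE, edgeR adjusted p = 0.000921). L4-1 and L4-2 differed at 17 members at 15 DAS and 16 at 28 DAS, and 14 of these were called in the same direction at both ages.

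Of the 14 members that separated L4-1 from L4-2 at both ages, 10 lay on chromosome 1, and the others were AT2G01090, AT4G07810, AT4G12917 and AT4G29200. AT1G24145, AT1G30835 (SADHU1-2), AT1G35110, SADHU2-1, AT1G35115 and AT1G42852 were lower in L4-2 at both ages. SADHU2-1 had 3.81 and 5.07 CPM in L4-1 and 0 in both pools of L4-2 at 28 DAS, with C24 of the batch at 3.17 and 4.01 CPM. SADHU1-2 had 9.80 and 7.40 CPM in L4-1 and 0.0719 and 0.0744 CPM in L4-2. Farther along the chromosome the order turned. AT1G47950, AT1G63880, AT1G65370 and AT1G66860 were higher in L4-2 at both ages, and AT1G63880 had 1.69 and 2.07 CPM in L4-1 and 19.6 and 40.0 CPM in L4-2 (4.00 ± 0.51 SE, edgeR adjusted p = 0.000465). L1-1 and L1-2 were separated at both ages by AT2G05642, AT2G07750, AT2G11140, AT2G14285, AT2G15042 and AT5G35344, all lower in L1-2, and by AT1G52905, AT2G15128, AT4G07810 and AT4G29200, all higher. L2-2 was lower than L2-1 at both ages at AT2G01090, AT2G05642, AT2G07750 and AT2G11140, and higher at AT3G43740, AT3G44215 and AT3G61020.

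Likeness between members was measured as Pearson's r of the share of C24 over the 8 L lines, taking the lower value of the 2 ages. Of 54 members with values at both ages, 34 had their best match on their own chromosome. The points share the C24 libraries of a batch and come in sister pairs, so r is a description. The 34 include members that share bases, such as AT2G13660 with AT2G13665 and AT1G35110 with AT1G35112. Chosen after their values were seen, AT1G43387 on chromosome 1, the antisense pair AT2G13660 and AT2G13665 on chromosome 2 and AT4G18410 on chromosome 4 resembled each other and a group of chromosome 3 members. AT1G43387 matched AT2G13665 at r = 0.996 (15 DAS) and 0.978 (28 DAS), and its best match on chromosome 1 was AT1G65370 at 0.0861 and 0.0426. It was the C24-like member in the otherwise Ler-like chromosome 1 of L3-1 and L3-2.

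The shared pattern is easiest to see by line. At 28 DAS, AT1G43387 had shares of 0.961 in L1-1, 0.510 in L1-2, 0.0511 in L2-1, 0.422 in L2-2, 0.929 in L3-1, 1.18 in L3-2, 0.00149 in L4-1 and 0.00760 in L4-2. The median over the 6 members from AT3G19320 to AT3G44430 was 1.02, 0.492, 0.0642, 0.550, 0.737, 0.810, 0.0146 and 0.0229 in the same order. Those 6 members were grouped after their values were seen. Over them, r with AT2G13660 had a median of 0.963 at 15 DAS and 0.974 at 28 DAS, and with AT4G18410 it was 0.957 and 0.985. AT3G44430 gave the lowest values at 28 DAS (0.642 and 0.654). AT5G37125 on chromosome 5, the partner of AT4G18410 by sequence and no member, followed the same lines, at r = 0.926 and 0.992 with AT4G18410.

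**Figure D5:**
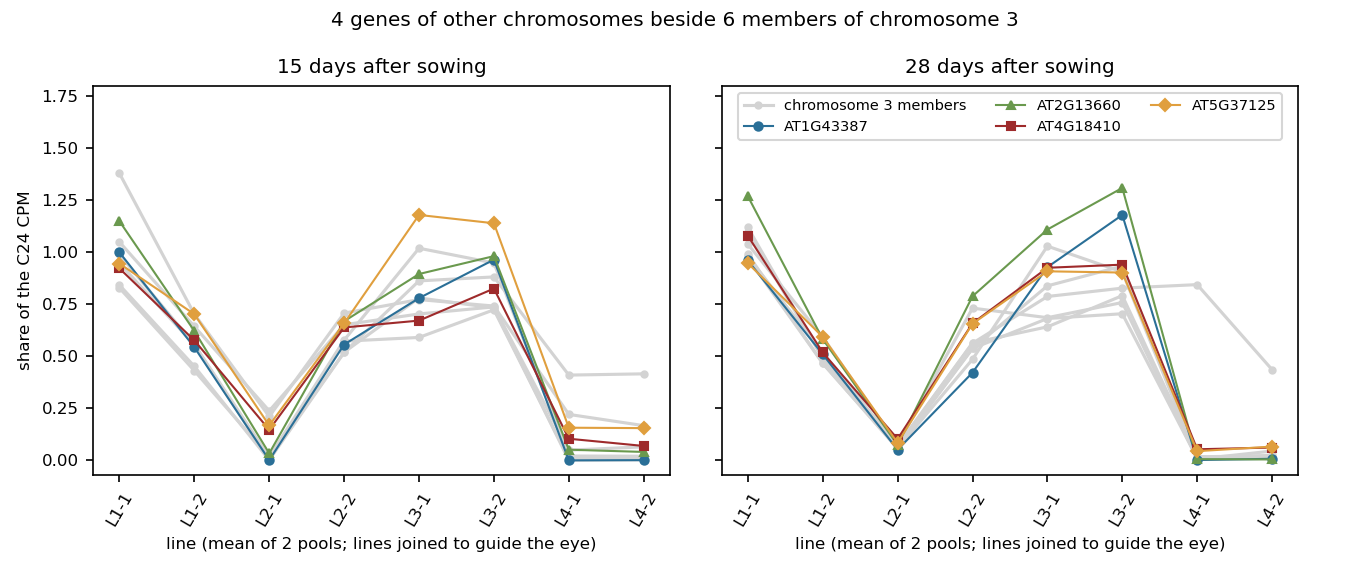
Share of the C24 CPM in the 8 L lines at 15 and 28 DAS for AT1G43387, AT2G13660, AT4G18410 and AT5G37125 (coloured), which lie on chromosomes 1, 2, 4 and 5, beside the 6 chromosome 3 members from AT3G19320 to AT3G44430 (grey). The coloured lines are high in L1-1, L3-1 and L3-2 and near 0 in L2-1, L4-1 and L4-2 along with most grey lines.

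Further members matched another chromosome. AT5G28450, the gene that shares sequence with LHCA2 on chromosome 3, followed SADHU10-1 on chromosome 3 at r = 0.965 and 0.984, and its best match on chromosome 5 was AT5G28350 at 0.808 and 0.812. It had 3.11 and 0.209 CPM in L2-1 and 0.631 and 0.425 CPM in L2-2 at 28 DAS, where AT5G28350 had 15.0 and 10.3, and 18.4 and 16.9 CPM. AT5G28350 itself had its best match in AT3G47350 on chromosome 3, at 0.907 and 0.920. Only 1 of its 5 best matches lay on chromosome 5. AT2G15128, a short non-coding RNA on chromosome 2, had all of its 5 best matches on chromosome 4, the first being PSEUDOSRKA at 0.881 and 0.837. AT5G35344, a pseudogene on chromosome 5, had all 5 on chromosome 2. AT2G25510 had none of its 5 best on chromosome 2 either, and none of its L line comparisons with F1 was called at either age.

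Chosen after their values were seen, AT1G36078 on chromosome 1 and AT5G26345 on chromosome 5 were Ler-like in every L line. At 28 DAS the 16 L line pools ran from 0 to 0.0908 CPM for AT1G36078, below every C24xLer and LerxC24 pool. AT5G26345 had at most 0.119 CPM in 15 of these pools, and 1.21 CPM in pool A of L2-1. At 15 DAS it had 3.01 CPM in pool B of L2-2, against 0.498 CPM in pool A and 0.248 to 0.549 CPM in the Ler pools of both batches. Both were called lower than F1 in 8 of 8 lines at 15 DAS and in 7 of 8 at 28 DAS. The S lines gave the same at 15 DAS, with 0, 0.0471, 0 and 0.0154 CPM for AT1G36078 and 0.0375, 0.220, 0.142 and 0.247 CPM for AT5G26345. Both genes were also among the 12 members that were low in the libraries labelled Ler of batch 1. No other member was Ler-like in all 8 lines at both ages.

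AT1G14250, a GDA1/CD39 nucleoside phosphatase gene on chromosome 1, differed between the ages. In seedlings it had 207, 42.5, 45.4 and 42.9 CPM in C24 and 54.9, 5.78, 9.62 and 5.43 CPM in the F1 pools, and it was under 0.25 of C24 in both F1s (shares 0.243 and 0.170) and in all 8 lines, none of which was called lower than F1. In C24xLer, L1-1 (37.4 and 8.45 CPM) and L1-2 (9.29 and 17.4 CPM) this rests on C24 pool A. Against C24 pool B alone the mean of each lies above 0.25. The C24xLer pools also differed, with shares of 0.440 in pool A and 0.0464 in pool B. In leaves the F1 pools held 84.1, 72.2, 117 and 131 CPM and C24 held 61.1, 38.7, 41.6 and 172 CPM. L1-1 had 110 and 210 CPM and L4-2 91.0 and 278 CPM in leaves. L2-2, L3-1 and L3-2 stayed at 0.437 to 0.834 CPM, lower than F1 (log2 differences -6.57 ± 1.01, -7.44 ± 1.05 and -7.95 ± 1.08 SE, edgeR adjusted p = 0.00246, 0.000634 and 0.000537). The C24 pools of this gene differed widely at both ages. AT1G14250 and AT4G23215 made up 9 of the 10 pairs that switched class between Ler-like and C24-like.

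The S lines, compared at 15 DAS with the mean of both F1s, were lower than F1 at many members. S1-1 had 28 lower members (background 10.4%) and 14 higher (background 12%), and S2-1 had 25 lower (background 8.44%) and 9 higher (background 9.72%). As for the L lines, lower and higher counts cannot be weighed against each other. The backgrounds were also larger than those of the L lines, and this contrast uses 4 F1 libraries where those use 2. Flower organ markers summed to 39.8 to 64.0 CPM in the S pools against 19.0 to 25.3 CPM in the F1 pools, and leaf markers to 24043 to 28590 CPM against 30417 to 37951 CPM. Their part in the result was not tested. The lower counts were 28 in S1-1 and 24 to 25 in S2-1 when any library was left out. The higher counts were less steady: 3 to 12 for S1-1 and 3 to 8 for S2-1, with the lowest values without pool A of the line, and 8 and 4 without pool B. Against C24xLer alone, 5 members in S1-1 and 3 in S2-1 were higher.

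By chromosome, 10 of 15 members on chromosome 1 and 6 of 11 on chromosome 2 were Ler-like in each S line. On chromosome 1 these were not all the same members. AT1G63880 and AT1G65370 were Ler-like in S1-1 alone, and AT1G24145 and SADHU1-2 (AT1G30835) in S2-1 alone. SADHU2-1 had no count in any S pool, against 5.47, 4.56, 6.43 and 9.84 CPM in the F1 pools. AT2G05642 had 2.96, 2.64, 2.92 and 3.02 CPM in S1-1 and S2-1 against 47.0, 65.6, 78.0 and 72.9 CPM in the F1s. The lines parted at other genes. AT1G63880 had 5.49 and 5.50 CPM in S1-1 and 38.4 and 34.1 CPM in S2-1, and passed in S1-1 (log2 difference -2.93 ± 0.13 SE, edgeR adjusted p = 1.28e-12) and not in S2-1 (-0.21 ± 0.11 SE, adjusted p = 0.192). CRK4 was likewise lower in S1-1 (7.10 and 7.62 CPM, -1.50 ± 0.30 SE, adjusted p = 0.0013) while S2-1 had 21.8 and 16.4 CPM. AT2G25510 was higher in S1-1 (704 and 458 CPM, 1.65 ± 0.47 SE, adjusted p = 0.0154) and had 62.0 and 172 CPM in S2-1. S1-1 and S2-1 were not tested against each other.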

How the data were processed

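The members, gene lists and comparisons were chosen with earlier results of these data known. The values used are raw read counts per gene in the tables deposited by the authors. Per the submitters' processing notes, FastQC and the TAIR10 genome were used. Which aligner and counter made the counts, and how strand and multiply matching reads were handled, is not given in the sources used here. Tables of normalised scores that the authors deposited were not used. Groups follow the sample titles, including 1 library of L4-2 at 28 DAS whose tissue label gives the other age.

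CPM is the count divided by the library total, per 1e6. Shares divide a group's mean CPM by that of C24 in the same batch (both batches for S lines) and need at least 1 CPM in C24. Tests used edgeR 4.0.16 quasi-likelihood fits with TMM scaling in R 4.3.3. Each age had a fit over all its groups, with 30207 genes in seedlings and 27844 in leaves, and the mid-parent fit with averaged parental libraries had 30089. Genes were filtered by filterByExpr, all 55 members were tested, and p-values were adjusted over all genes by BH at 0.05. The fits were tested on simulated data. DESeq2 1.42.0, other scalings, filters and limits, leaving out each library and a replicate block were the alternatives. Copies were sought with BLAST 2.17.0. Sequences and biotypes come from the RefSeq annotation of TAIR10.1.

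Named members were the 12 highest in C24, the highest of each family, those nearest the limit, exceptions in the batch 2 parents, and members called at both ages in lines and sister pairs. The other members named, among them those that follow another chromosome, were chosen after their values were seen. Values of 1 member are not reported here, and it stays in the counts.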

Additional observations from a re-analysis of the deposited data

Results flagged for a closer look

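The difference between Ler and C24 in seedlings at 15 DAS was not the same in the 2 batches. A test of the difference between batches, chosen after the values were seen, called 33 members as less negative in batch 1. SADHU2-1 (AT1G35112) had a fitted log2 difference between batches of 11.48, which rests on 2 Ler libraries of batch 2 at 0 and depends on the prior count. AT2G25510 differed by 10.30 and AT1G35115 by 9.49. All of these differences take the Ler side of batch 1 from the same 2 libraries labelled Ler of batch 1.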

How the results depend on the processing

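Of 139 alternatives other than leaving out a library, 14 moved a count by over 1.5 times or a median by over its spread, and of 2680 alternatives for 622 single-member results, 33 lost the call and 0 reversed. With parents averaged on the log scale, 10 members in C24xLer and 31 in LerxC24 were higher than mid-parent in place of 0. Against C24xLer alone, 5 members were higher in S1-1 and 3 in S2-1, and against LerxC24 alone 9 were higher in S1-1. DESeq2 called 59 higher tests over the L lines at 15 DAS and 28 at 28 DAS. An 8-fold limit gave 86 members and a C24 minimum of 5 CPM gave 36. With C24 of the other batch, the median F1 share was 0.479 (C24xLer) and 0.509 (LerxC24) at 15 DAS and 0.572 and 0.463 at 28 DAS, and with TMM library sizes it was 0.495 for LerxC24 at 15 DAS. For counts of called members under other settings or with a library left out, the share of all genes is not given throughout. Those counts are therefore a description only. The causes were not tested.

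Leaving out each library gave 3 to 12 higher members for S1-1, 3 to 8 for S2-1, 18 to 39 higher tests over the L lines at 15 DAS (18 with LerxC24 pool A or pool B left out) and 4 to 8 at 28 DAS. Single pools gave median shares of 0.480 to 0.522 for C24xLer and 0.451 to 0.471 for LerxC24 at 15 DAS, and 0.477 to 0.513 for C24xLer at 28 DAS. The main fits had no term for the pool letters. Correlations between groups over the letters ran from -0.18 to 0.795 at 15 DAS (median 0.212) and from -0.491 to 0.748 at 28 DAS (median -0.00185). They do not settle whether the letters pair samples. With the letter as a replicate block, 42, 54 and 52 members were lower in Ler of batch 1, of batch 2 and of the smallest seedlings, 140 tests over the L lines were lower at 15 DAS, and 60 and 39 sister tests were called at the 2 ages. No count moved by over 1.5 times under the block. With 2 pools a group, small differences cannot be resolved, and a low count of a member cannot separate low expression from diverged or missing sequence.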
